A study of Mus musculus with 22 samples.

Results

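Early lost H3K27ac regions are stretches of the mouse genome that carried a peak of histone H3 acetylated at lysine 27 (H3K27ac) in undifferentiated G1ER cells and no longer carried a listed peak at 6 h or at 24 h of differentiation. They were chosen by the H3K27ac lists themselves. The peaks of the 10 H3K27ac lists were merged where they touch into 24299 consensus regions, and a region was kept when it had a peak in both lists at 0 h and in none of the 4 lists at 6 h and 24 h, with an overlap of at least 1 bp. Of the 24299 regions, 16020 had a peak in both lists at 0 h, and 291 of these met the whole rule. G1ER (G1E-ER4) cells derive from G1E, a line of erythroid progenitors without *Gata1*. They carry GATA1-ER, a fusion of GATA1 with the hormone-binding part of the estrogen receptor, which is present at all times and inactive until hormone is added. All lists came from this single clone, including those of untreated cells. β-estradiol switches the fusion protein on, and cells were taken at 0, 2, 6, 12, and 24 h of β-estradiol. H3K27ac and H3K4me3 had 2 lists at each time, and CTCF had 1 list at 0 h and 1 at 24 h. The replicates of a histone mark were described as independent experiments, and whether they were separate cultures is not stated in the sources used here.

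H3K27ac is laid down by the acetyltransferases CBP and p300 at active enhancers and promoters and is removed by histone deacetylases, so it can disappear from a site faster than most histone methylation. H3K4me3 marks promoters and usually remains where a promoter stays poised. In erythroid progenitors GATA2 holds part of the enhancers in the absence of GATA1, and GATA1 takes over such sites as cells differentiate, closing some and activating others. The GATA factors bind the short motif WGATAR, often next to E-boxes, RUNX sites or ETS sites.

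Each list holds peak positions with a score per peak and no read counts, so the depth behind a peak is unknown. A list without a peak in a region says that no peak passed the authors' call there, which is not a measure of zero acetylation. In bulk chromatin, fewer cells with the mark and less mark per cell cannot be told apart. The H3K27ac lists held 17247 to 18333 peaks, the H3K4me3 lists 12925 to 14452, and the CTCF lists 33193 at 0 h and 41473 at 24 h. No H3K27ac peak in any list was longer than 8973 bp. Of the 179311 H3K27ac peaks, 886 were 8000 bp long or longer. As a check of the cell type, promoters of 8 erythroid markers were examined, and only that of *Klf1*, an erythroid transcription factor gene, had an H3K27ac peak in more than 2 lists, in all 10. *Epor* had one in 2 lists and *Tfrc* in 1. *Gfi1b*, *Nfe2*, and *Zfpm1* had none, although H3K4me3 was listed at each of these 3 in 8 or 9 of the 10 lists, and *Tal1* had neither mark in any list. Most defining erythroid promoters were therefore without listed H3K27ac. Of 6 mast cell genes, *Hdc* had an H3K27ac peak in 9 lists, *Ms4a2* in 8, *Fcer1a* in 4, *Cpa3* in 2, *Tpsb2* in 1, and *Kit* in 0. Promoters of the B cell, T cell, fibroblast, and hepatocyte markers examined had neither histone mark in any list, and of the neuronal markers *Tubb3* had H3K4me3 in 8.

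Most of the 291 regions held no transcription start site (TSS) of a protein-coding gene. Only the start of a main transcript of each such gene counts as a TSS, so other start sites may be present. The sequences of 8 regions without a TSS are shown first. They are named by the nearest protein-coding TSS within 100 kb and are regions near genes of the lists examined or regions whose covered length changed in a test described further on. Each run is the 200 bases of the region with the most GATA motif matches, from the forward strand of GRCm38 (mm10), and capitals mark the GATA motif in its forms AGATAA or AGATAG and also TGATAA or TGATAG, on either strand. None of these 8 runs overlaps an annotated exon, and the run for *Vav1* lies at chr17:57290333-57290532, *Car2* at chr3:14915616-14915815, *Tpsab1* at chr17:25332980-25333179, *Erg* at chr16:95533356-95533555, *Nadk2* at chr15:9089163-9089362, *Tpm1* at chr9:67042524-67042723, *Gmpr* at chr13:45527092-45527291, and *Gng2* at chr14:19993347-19993546.
Vav1: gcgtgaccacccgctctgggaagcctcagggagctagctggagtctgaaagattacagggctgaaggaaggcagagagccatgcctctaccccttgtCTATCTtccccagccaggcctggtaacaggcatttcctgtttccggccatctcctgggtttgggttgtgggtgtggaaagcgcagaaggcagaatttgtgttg
Car2: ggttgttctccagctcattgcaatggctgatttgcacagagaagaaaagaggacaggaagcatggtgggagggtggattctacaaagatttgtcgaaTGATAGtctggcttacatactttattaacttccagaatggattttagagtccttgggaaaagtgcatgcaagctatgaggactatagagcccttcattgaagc
Tpsab1: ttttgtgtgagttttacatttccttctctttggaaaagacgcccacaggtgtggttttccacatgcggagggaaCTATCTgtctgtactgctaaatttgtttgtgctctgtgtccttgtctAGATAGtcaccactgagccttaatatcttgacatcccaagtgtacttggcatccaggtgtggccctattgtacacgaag
Erg: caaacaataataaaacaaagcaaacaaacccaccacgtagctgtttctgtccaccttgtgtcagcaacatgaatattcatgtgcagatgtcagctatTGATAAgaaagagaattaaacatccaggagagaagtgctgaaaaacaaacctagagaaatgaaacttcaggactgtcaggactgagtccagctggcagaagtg
Nadk2: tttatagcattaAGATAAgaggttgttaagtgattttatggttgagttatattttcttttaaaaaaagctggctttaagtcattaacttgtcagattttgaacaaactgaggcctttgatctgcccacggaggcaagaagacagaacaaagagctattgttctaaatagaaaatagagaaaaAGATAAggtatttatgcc
Tpm1: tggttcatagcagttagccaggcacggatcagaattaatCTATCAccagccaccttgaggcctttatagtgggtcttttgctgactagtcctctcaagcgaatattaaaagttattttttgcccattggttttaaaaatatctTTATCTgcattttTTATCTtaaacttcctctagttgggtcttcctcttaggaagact
Gmpr: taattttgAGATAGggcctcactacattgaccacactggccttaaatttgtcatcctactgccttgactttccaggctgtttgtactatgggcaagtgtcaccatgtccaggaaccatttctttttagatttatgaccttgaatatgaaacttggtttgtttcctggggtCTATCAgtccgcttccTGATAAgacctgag
Gng2: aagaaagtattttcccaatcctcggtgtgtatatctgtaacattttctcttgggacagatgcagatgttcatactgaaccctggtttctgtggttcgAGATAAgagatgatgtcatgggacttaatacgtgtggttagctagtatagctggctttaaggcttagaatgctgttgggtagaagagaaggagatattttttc

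The runs near *Vav1*, *Car2*, *Erg*, and *Gng2* hold 1 GATA match each, those near *Tpsab1* and *Nadk2* hold 2, and those in *Tpm1* and *Gmpr* hold 3. Only regions with a GATA match and with at most 50% repeat bases around the midpoint were shown, so the presence of a match in them is no result. The 1000 bases around the midpoint hold no match in, among others, the regions near *Tfrc* and *Gm3417*, in *Pdzd8*, and in *Tpm1*. The 3 matches in the *Tpm1* run shown lie further out, and that whole region holds 10. The regions of *Vav1*, *Car2*, and *Erg* are short peaks of low score, that of *Tpsab1* is longer (2155 and 2213 bp at 0 h), and the regions of *Nadk2*, *Tpm1*, and *Gmpr* are long ones. The *Gmpr* region is also of low score, with percentiles of 3.67 and 16.3 in the 2 lists at 0 h.

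The 291 regions fell into unlike kinds at 0 h. A protein-coding TSS lay in 31 of them (10.7%, 95% Wilson interval 7.61% to 14.7%), against 47.9% of all 16020 regions with a peak in both lists at 0 h. Among the 403 regions lost late, which had a peak in both lists at 0 h and 6 h and in neither at 24 h, the share was 10.4%. The midpoint lay in an intron in 132 regions, between genes in 139, in a UTR in 15, and in coding sequence in 5. The median distance to the nearest TSS was 25614 bp, and 60 regions had none within 100 kb.

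**Figure D1:**
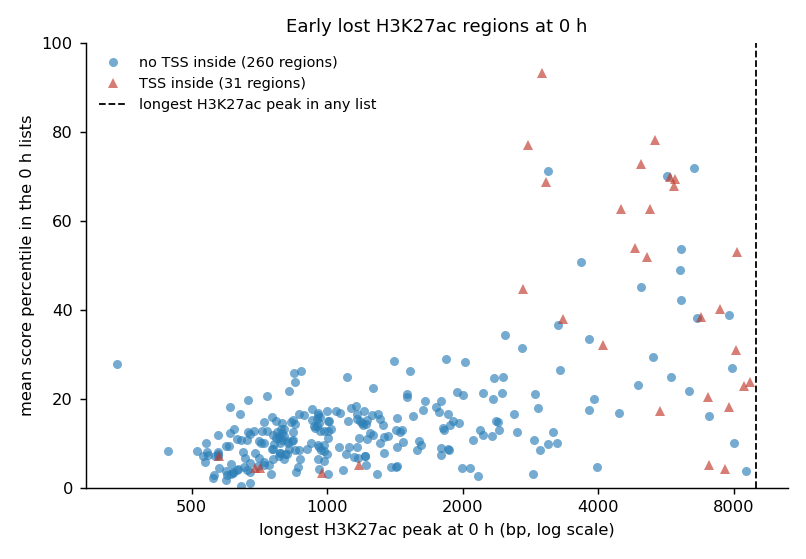
Longest H3K27ac peak at 0 h (x axis, bp, log scale) against the mean percentile of the region's score within the 2 lists at 0 h (y axis), with 1 point for each early lost region. Most regions without a TSS (circles) are short and under a percentile of 20, most regions with a TSS (triangles) are long, and the dashed line marks the longest H3K27ac peak in any list, 8973 bp.

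The 260 regions without a TSS were mostly short peaks of low score. Their median longest peak at 0 h was 1003 bp and their median score percentile within the 0 h lists was 11.9, against 2043 bp and 35.6 for all 8353 regions without a TSS in both 0 h lists. The 31 regions with a TSS were long. Their median longest peak was 5210 bp, against 2796 bp for all 7667 regions with a TSS in both 0 h lists, and in 21 of the 31 (67.7%) it reached 4 kb, as it did in 23.3% of the 7667. These scores and lengths come from the lists that chose the regions and are given as description. The 391 regions that narrowly missed the rule, with a peak in both 0 h lists and in 1 of the 4 lists at 6 h and 24 h, had a median percentile of 14.7 against 12.6 for the 291, and a median covered length of 1135.5 bp against 994.5 bp.

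The lists at 2 h and 12 h were not used to choose the regions. At 2 h, 32.0% of the 291 regions had a peak in replicate 1 and 38.1% in replicate 2 (35.1 ± 4.37%, SD, n = 2). At 12 h the shares were 17.9% and 19.6% (18.7 ± 1.21%). Regions lost late had a peak in 82.3 ± 3.33% at 2 h and 71.6 ± 0.53% at 12 h, and all regions in both 0 h lists in 94.8 ± 0.53% and 93.9 ± 0.19%. Both early lost values lay below both values of each of the other sets at each time. With 2 lists against 2 an exact two-sided permutation test cannot go below p = 0.333, so these shares were not tested. Regions with low scores at 0 h had fewer later peaks in general. Of all regions in both 0 h lists with a percentile under 20, which include 227 of the 291, 69.8 ± 3.78% had a peak at 2 h and 68.9 ± 0.42% at 12 h, while in those 227 the shares were 32.4 ± 7.16% and 19.8 ± 3.74%.

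**Figure D2:**
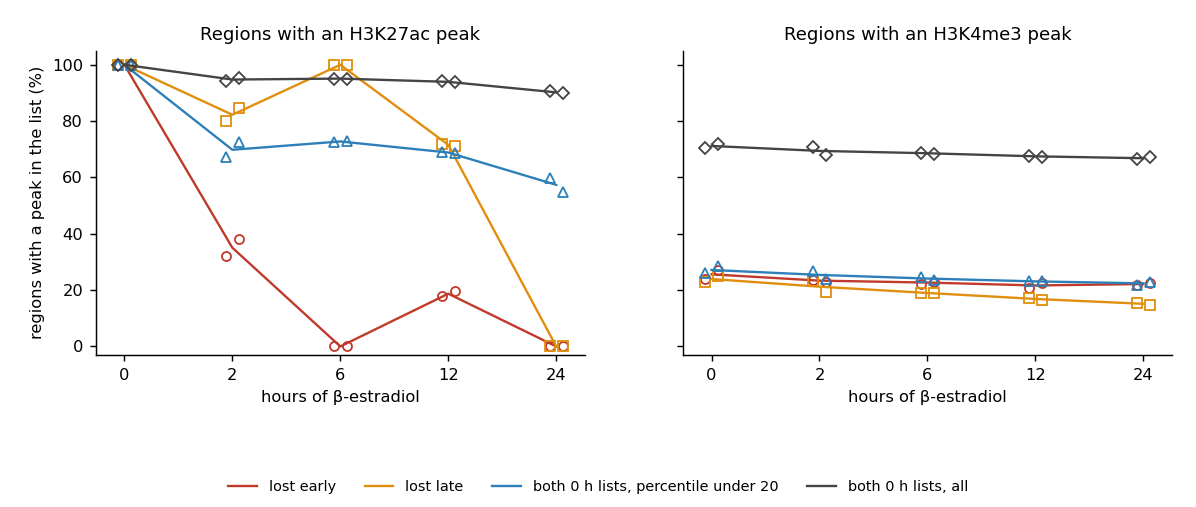
Share of regions (y axis, %) with an H3K27ac peak (left) or H3K4me3 peak (right) in each list, by hours of β-estradiol (x axis, evenly spaced). Symbols are the 2 lists of a time and lines join their means; early lost regions stand at 100% at 0 h and at 0% at 6 h and 24 h by the rule, and between 17.9% and 38.1% in the 4 lists the rule did not use.

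Most of the regions were already missing from at least 1 list at 2 h. Of the 291, 129 had no peak in either list at 2 h (44.3%), 120 had one in 1 list (41.2%), and 42 had one in both (14.4%). At 12 h, 203 had none (69.8%), 67 had one in 1 list (23.0%), and 21 had one in both (7.22%). Over both times, 97 regions (33.3%) had no peak in any of the 4 lists, against 1.19% of all regions in both 0 h lists and 2.23% of those lost late. This gap is likewise not independent of how the sets were chosen. The decline was not the only order seen. While 122 regions (41.9%) were in more lists at 2 h than at 12 h, 41 (14.1%) were in more lists at 12 h than at 2 h, and 7 had a peak in both 12 h lists and in neither 2 h list. The word lost therefore describes the lists at 6 h and 24 h, and 88 of the 291 regions (30.2%) had a peak in at least 1 list at 12 h. The count of 291 rests on both lists of a time. It was 798 or 879 when a 0 h list was left out (replicate 1 or 2) and 455 or 448 when a 6 h list was left out (replicate 1 or 2), since the rule is then easier to meet.

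Of the 8 early lost regions with the highest scores at 0 h, 5 held a TSS, those of *Noct*, *Larp1*, *Mrm1*, *Eif3a*, and *Cdkn1b*. The other 3 lay near *Gm3417*, in an intron of *Xpnpep1* 913 bp from its TSS, and in an intron of *Tpm1*. At *Noct*, which encodes nocturnin, the region at chromosome 3, 51223595 to 51226593 spans the TSS and had the highest score percentile of the 291 (88.95 and 97.5 in the 2 lists at 0 h). H3K27ac peaks covered 2999 and 2532 bp of it at 0 h and none in any of the 8 later lists. H3K4me3 covered between 2831 and 2999 bp in all 10 lists. *Larp1*, an mRNA-binding regulator of ribosomal protein synthesis (chromosome 11, 58006931 to 58012460), went from 5353 and 4953 bp at 0 h to none in the 8 later lists, with H3K4me3 over 4492 to 5242 bp throughout. *Eif3a*, the largest subunit of translation initiation factor eIF3 (chromosome 19, 60787590 to 60792566), went from 4977 and 4858 bp to none, with H3K4me3 over 4216 to 4484 bp. At all 3 promoters H3K27ac was thus already unlisted at 2 h, while the H3K4me3 lengths at 0 h lay within the range of the later lists, except for 4484 bp in 1 list at *Eif3a*, where the later lists reached 4425 bp.

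Other promoters left the lists in part or later. At *Mrm1*, which encodes a mitochondrial ribosomal RNA methyltransferase, the 0 h lists covered 2796 and 2677 bp with H3K27ac, the 2 h lists 3142 and 2869 bp, and 1 list at 12 h 3228 bp, with no peak in the other lists. *Cdkn1b*, the gene of the cell cycle inhibitor p27, had 3972 and 5759 bp at 0 h and 3984 bp in 1 list at 2 h. At *Khsrp*, an RNA-binding protein of mRNA decay, both lists at 2 h had a peak (2699 and 3902 bp) and neither at 12 h. At *Arid1a*, a subunit of the BAF chromatin remodeling complex, the 8700 and 8479 bp at 0 h were followed by 8624 bp in 1 list at 12 h and nothing in the other lists. The region at *Atf5*, a bZIP transcription factor gene, holds the TSSs of 2 genes. It had 8187 and 8430 bp at 0 h, 8714 bp in 1 list at 2 h, and 8353 bp in 1 list at 12 h. At *Clcn3*, a chloride and proton exchanger gene, 7605 and 7647 bp at 0 h were followed by no peak in any later list. The 0 h peaks there had low score percentiles, 2.75 and 5.79. *Crlf3* had no peak at 2 h and 8224 bp in 1 list at 12 h, where 0 h had 5918 and 4998 bp.

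**Figure D3:**
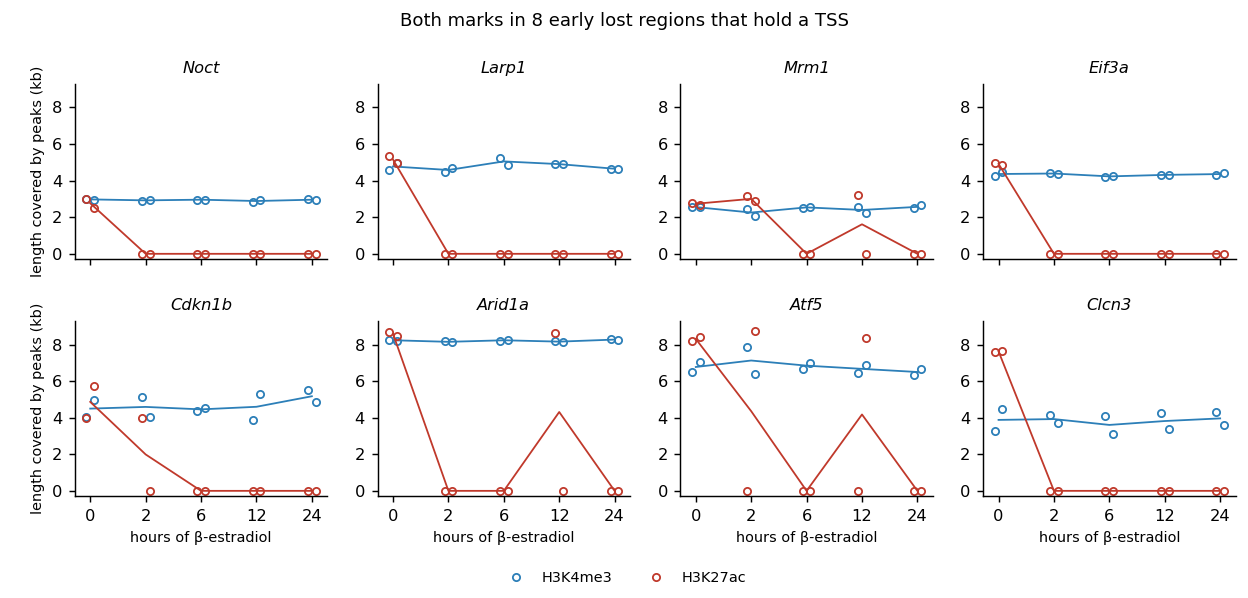
Length covered by H3K27ac (red) and H3K4me3 (blue) peaks in kb (y axis) by hours of β-estradiol (x axis, evenly spaced) in the 8 early lost regions with a TSS that had the highest scores or the longest peaks at 0 h. Circles are the 2 lists of a time and lines join their means; H3K4me3 stays listed in all 10 lists while H3K27ac is absent at 6 h and 24 h by the rule.

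Where promoter regions did have a later peak, it was long. In the lists at 12 h, 10 peaks were seen in the 31 regions with a TSS over both replicates, and in all 10 the covered length exceeded the region's mean at 0 h. At 2 h this held in 15 of 20. Over all 7667 regions with a TSS in both 0 h lists it held in 62.3% at 12 h and 48.8% at 2 h. Of the same 10 cases at 12 h, 5 had a peak of at least 8000 bp, near the longest peak of any list. In regions without a TSS the covered length exceeded the 0 h mean in 43 of 99 cases at 12 h and 88 of 184 at 2 h. In 30 of the 31 regions with a TSS, the peak-free stretch around the region was longer than 8973 bp in each of the 4 lists at 6 h and 24 h. The part that a length limit of the peak calls plays in the early loss at promoters was not tested.

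H3K4me3 was not used to choose the regions. A peak of it was found in 24.1% and 27.1% of the 291 regions at 0 h (25.6 ± 2.19%, n = 2) and in 21.6% and 22.7% at 24 h (22.2 ± 0.73%). Over all regions in both 0 h lists the means were 71.2 ± 0.92% and 66.8 ± 0.47%, and over the regions lost late 23.9 ± 1.58% and 15.1 ± 0.35%. The mark was in none of the 10 lists in 201 of the 291 regions and in all 10 lists in 50. Of the 31 regions with a TSS, 27 had it in all 10 lists, and so had all 21 of those with a 0 h peak of 4 kb or longer. Over the 27 the median H3K4me3 length was 3763 and 3960 bp in the 0 h lists, 4088 and 4110 bp in those of 6 h, and 4333 and 4348 bp in those of 24 h. Another 23 regions with H3K4me3 in all 10 lists held no protein-coding TSS as counted here, for example the region 12020 bp from *Chd2* (chromosome 7, 73553766 to 73562105), with 4754 to 6717 bp in every list. Such regions may hold other start sites or lie next to a counted TSS, as the *Gramd4* region does at 17 bp. Among the 243 regions with no TSS and 0 h peaks under 4 kb, a set defined after seeing the data, only 12 had H3K4me3 in all 10 lists and 197 had it in none.

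Changes in H3K4me3 length were tested with limma over all 13255 H3K27ac consensus regions with H3K4me3 in at least 2 of the 10 lists, on log2(covered bp + 200), and 79 of the 291 regions could be tested. Between 0 h and 24 h, 3 of the 79 became longer (3.80%) and 1 became shorter (1.27%) at a Benjamini-Hochberg adjusted p under 0.05, against 0.505% and 1.43% of all regions tested. Of the 3, the introns of *Noct* and *Pdzd8* had H3K4me3 in 2 and 3 of the 10 lists, both 24 h lists among them. They passed the filter through the time at which they are long and, with no H3K4me3 at 0 h, could only come out longer. The 3.80% and the adjusted p of these 2 regions are therefore given as description. The median log2 difference was -0.03 in the 79 and -0.02 over all. In the intergenic region near *Gng2*, a G protein subunit gene (chromosome 14, 19993216 to 19994279), the H3K4me3 length was 777 and 893 bp in the 0 h lists, still 557 and 594 bp in the 12 h lists, and 0 in those of 24 h, a log2 difference of -2.37 with an SE of 0.21 (limma adjusted p = 0.00526). This call held without any 1 of the 10 lists. In an intron of *Noct* next to its promoter (chromosome 3, 51227386 to 51233207), no list up to 12 h had H3K4me3, and the 24 h lists had 1089 and 836 bp, a log2 difference of 2.53 with an SE of 0.30 (limma adjusted p = 0.0121). In an intron of *Pdzd8*, a lipid transfer protein gene (chromosome 19, 59336709 to 59340694), the 24 h lists covered 1882 and 1601 bp and the 0 h lists none (3.28 with an SE of 0.48, limma adjusted p = 0.0274). The *Ranbp10* promoter region (chromosome 8, 105822895 to 105828121) holds the TSSs of 2 genes. H3K4me3 there grew from 2762 and 3075 bp to 4856 and 4884 bp (0.70 with an SE of 0.11, limma adjusted p = 0.0391). The number of calls fell to 1 without either 0 h list or without replicate 1 at 24 h, and to 2 without replicate 2 at 24 h. The call in *Noct* was lost without either 0 h list and could not be tested without a 24 h list. That in *Pdzd8* was lost without any 1 list at 0 h, 6 h or 24 h, and that at *Ranbp10* also without either 2 h list. The *Ranbp10* region had H3K4me3 in all 10 lists, and the mark was longer at 24 h, when H3K27ac was absent by the rule.

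Between 0 h and 6 h, the first time at which the rule asks for H3K27ac to be absent, 0 of the 79 regions passed in either direction in limma, against 0.445% shorter and 0.0679% longer of all regions. At an unadjusted p under 0.05, 5 of the 79 were shorter and 2 longer. Without replicate 1 at 6 h 3 regions passed, and without replicate 1 at 12 h 1 did.

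H3K27ac length at 12 h was compared with that at 2 h in a limma fit to these 4 lists, over the 21300 regions with a peak in at least 1 of them. The 194 early lost regions tested had a median log2 difference of -1.03, against 0.05 over all regions, and 71.1% of the 194 were shorter at 12 h, against 41.5% of all. Regions with peaks at 2 h alone can only come out shorter, and those with peaks at 12 h alone only longer. With no peak at 12 h, 85 regions had one in 1 list at 2 h and 21 in both. With no peak at 2 h, 25 had one in 1 list at 12 h and 7 in both. The median and the share are therefore given as description. At an adjusted p under 0.05, 5 of the 194 were shorter (2.58%) and 0 longer, against 0.291% and 0.146% of all regions. At an unadjusted p under 0.05, 21 were shorter and 7 longer. Both lists at 12 h were shorter than both at 2 h in 28 of the 194 regions (14.4%), against 12.1% of all, and both were longer in 9 (4.64%), against 22.8%. The 97 regions with no peak at either time could not be tested.

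The 5 regions called are those with long peaks in both lists at 2 h and none at 12 h. They entered the fit through the 2 h lists and could only come out shorter. In the intron of *Tpm1*, a tropomyosin gene (chromosome 9, 67038843 to 67044742), H3K27ac covered 4792 and 5517 bp at 2 h, and the log2 difference was -4.74 with an SE of 0.22 (limma adjusted p = 0.0228). In an intron of *Gmpr*, which encodes guanosine monophosphate reductase (chromosome 13, 45523814 to 45531829), it covered 5826 and 7951 bp (-5.13 with an SE of 0.24, limma adjusted p = 0.0232). In an intron of *Nadk2*, a mitochondrial NAD kinase gene (chromosome 15, 9088830 to 9095288), it covered 5109 and 6308 bp (-4.88 with an SE of 0.23, limma adjusted p = 0.0226). The others were the intergenic region 9833 bp from *Gm3417*, with 6468 and 6557 bp (chromosome 17, 14988623 to 14995250, limma adjusted p = 0.0149), and the region with the TSS of *Ech1*, an enoyl-CoA hydratase gene, with 4209 and 4808 bp (chromosome 7, 28822033 to 28827088, limma adjusted p = 0.0296). Because an absent peak is set to the added 200 bp, the differences largely reflect the length of the 2 h peaks. With 50 bp in place of 200, 0 regions passed, and the 5 had limma adjusted p from 0.0602 to 0.0809. The calls at *Gmpr* and *Nadk2* were lost without either 12 h list. Without a 2 h list the count rose to 67 (replicate 1) or 59 (replicate 2).

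CTCF, a DNA-binding protein of loop anchors and insulators, overlapped 46 of the 291 regions at 0 h (15.8%, 95% Wilson interval 12.1% to 20.4%) and 54 at 24 h (18.6%, 14.5% to 23.4%). Without a TSS the shares were 14.6% and 17.3%, against 24.4% and 28.8% of all regions without a TSS in both 0 h lists and 14.1% and 14.4% of those lost late. A peak was present at both times in 42 regions, at 24 h alone in 12, and at 0 h alone in 4. The 24 h list holds more CTCF peaks in all, and there is 1 list a time, so the difference has no replicate check. The CTCF peaks at *Tpm1* were 1547 bp at the first time and 1517 bp at the second, and those at *Mrm1* 1836 and 2037 bp. In the *Gm3417* region CTCF was listed only at 24 h, over 1318 bp.

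Early lost regions sometimes lay side by side. Another of the 291 lay within 50 kb of 26 regions (8.93%), and 3.44% of all regions in both 0 h lists had an early lost region that near. Some of these neighbours were separated by a short gap, such as 51 bp at *Rabepk*, 64 bp at *Pdzd8*, 102 bp at *Tmpo*, and 199 bp at *Ranbp10*. They count as separate regions because only touching peaks were merged. With peaks merged within 500 bp, 285 regions met the rule. On chromosome 11, 57950891 to 58012460, 3 regions lay around *Larp1*, and the pair of intergenic regions 51530 and 45003 bp from its TSS had 0 h lengths of 6214 and 6611 bp and of 4341 and 6103 bp. Both were also listed in replicate 1 at 2 h (6644 and 3878 bp), unlike the promoter itself. On chromosome 7, 80443510 to 80501500, 3 regions lay nearest to *Furin*, a proprotein convertase gene, or *Blm*, a DNA helicase gene, none with H3K4me3 in any list. The first of them covered 3651 and 3168 bp at 0 h and 3983 bp in 1 list at 2 h. Pairs included the promoter and intron of *Noct*, 792 bp apart, and the promoter of *Atp1b2* with a second region in that gene. A region in all 10 lists lay within 5 kb of 41 of the 291 (14.1%), against 14.8% of all regions in both 0 h lists.

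Few regions were nearest to genes of the lists examined. Genes of erythroid differentiation were nearest to 3 regions (1.03% of the 291, against 0.25% of all regions in both 0 h lists and 0 of the 403 lost late). At *Abcb10*, a mitochondrial transporter needed for heme synthesis, the region spans the TSS (chromosome 8, 123977821 to 123984888). H3K27ac covered 7046 and 7054 bp at 0 h, at low score percentiles of 0.33 and 10.1 in the 2 lists. No peak was listed there in the 8 later lists, while H3K4me3 went from 3763 and 3960 bp to 6166 and 6505 bp by 24 h. That H3K4me3 difference of 0.69 on the log2 scale (SE 0.15) did not pass the threshold (limma adjusted p = 0.114). At 28970 bp from the TSS of *Car2*, a carbonic anhydrase gene (chromosome 3, 14915398 to 14916431), 1021 and 850 bp at 0 h were followed by 914 bp in 1 list at 2 h and by 635 and 828 bp at 12 h. Near *Tfrc*, the transferrin receptor gene (chromosome 16, 32597713 to 32598729), 668 and 725 bp at 0 h were followed by 982 bp in 1 list at 2 h and by 561 and 689 bp at 12 h. The *Car2* and *Tfrc* regions thus had a peak in both 12 h lists, within or below the range of lengths at 0 h.

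Progenitor and signaling genes each contributed 1 region at most. In an intron of *Erg*, an ETS factor gene of stem and progenitor cells (chromosome 16, 95532740 to 95533597), 831 and 574 bp at 0 h were followed by no peak in any later list. In an intron of *Vav1*, a guanine nucleotide exchange factor of blood cells (chromosome 17, 57289893 to 57291278), 1386 and 899 bp at 0 h were likewise followed by none. Near *Tpsab1*, a mast cell tryptase gene (chromosome 17, 25332102 to 25334448), 2155 and 2213 bp at 0 h were followed by 1979 bp in 1 list at 2 h. The progenitor factors, the mast cell genes, and the cytokine receptors and signaling regulators each gave 0.34% of the 291, against 0.34%, 0.22%, and 0.29% of all regions in both 0 h lists. The lists of immediate early genes, megakaryocyte and platelet genes, and myeloid and lymphoid effector genes gave 0. The study also isolated chromatin at 42 promoters with guide RNAs and dCas9, and 41 of these genes had a match in the annotation. These genes were nearest to 3 regions, that of *Abcb10* and 2 at *Atp1b2*, which encodes a subunit of the sodium and potassium pump (1.03%, against 0.46%). The paper captured activated and repressed promoters, and reports that H3K27ac signal rose at the former and fell at the latter. That signal comes from reads and is not the same measure as a listed peak. The regions here were not compared by these groups. The *Atp1b2* promoter region covered 4093 and 4053 bp at 0 h and 4732 bp in 1 list at 2 h, with H3K4me3 lengths of 3557 and 3842 bp before β-estradiol and 4339 and 4348 bp after 24 h (limma adjusted p = 0.16, log2 difference 0.22).

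Sequence around the midpoints was compared in regions without a TSS, in windows of 1000 bases on both strands. The motifs were GATA (as above), E-box 1 (CAGATG) and E-box 2 (CAGCTG), RUNX (TGTGGT), ETS (AGGAAG), AP-1 (TGANTCA), and C/EBP (TTGCNNAA), and matches of different motifs may overlap. Among all 291 regions 81.8% had a GATA match. Without a TSS it was found in 217 of 260 early lost regions (83.5%, 95% Wilson interval 78.5% to 87.5%), in 92.5% (89.3% to 94.8%) of the 361 lost late, in 89.9% (88.5% to 91.2%) of the 1863 regions in both 0 h lists with a percentile under 20, and in 86.7% (85.8% to 87.5%) of the 5942 in all 10 lists. Matches of 2 or more were found in 63.1%, 79.5%, 70.7%, and 65.9%. Early lost regions thus had the lowest share of the 4 sets and regions lost late the highest, with a mean of 2.37 and 3.24 matches per window. Over all 24297 consensus regions on the reference chromosomes the share was 80.0%, promoters included. A GATA match was about as frequent in early lost regions with no peak at 2 h (84.1% of 113) as in those with one (83.0% of 147).

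**Figure D4:**
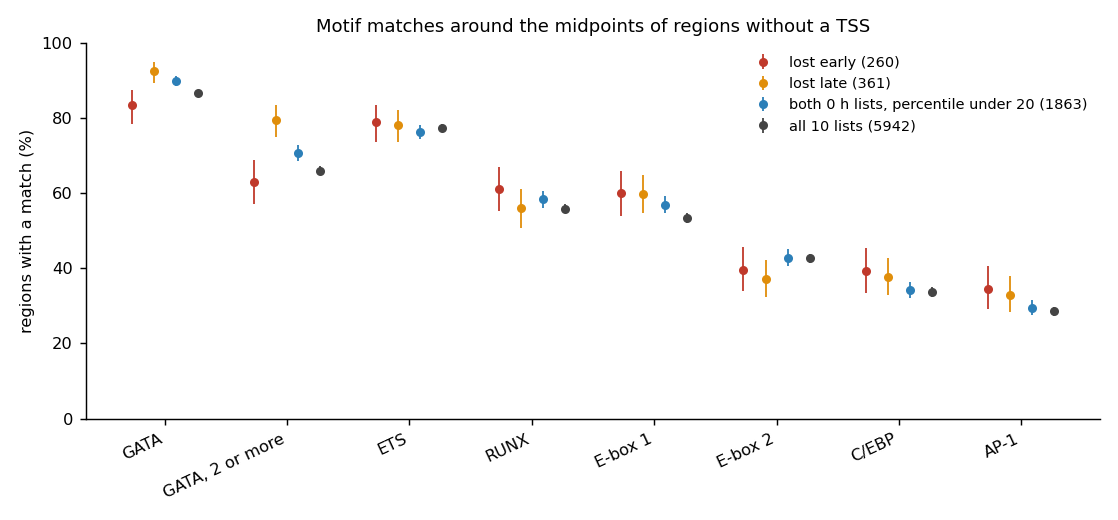
Share of regions without a TSS (y axis, %) with at least 1 match of each motif (x axis) in the 1000 bases around the midpoint, with 95% Wilson intervals as bars, for the numbers of regions in the legend. The GATA share is lowest in early lost regions (83.5%) and highest in those lost late (92.5%), while the intervals of these 2 sets overlap for the other motif families.

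Between early and late lost regions the other motifs differed less than GATA, while RUNX, E-box 1, AP-1, and C/EBP had higher shares in early lost regions than in those in all 10 lists. RUNX was found in 61.2% of early lost regions (55.1% to 66.9%), against 56.0% of those lost late and 55.8% of those in all 10 lists, both inside that interval. E-box 1 was found in 60.0%, 59.8%, and 53.4%, AP-1 in 34.6%, 33.0%, and 28.5%, and C/EBP in 39.2%, 37.7%, and 33.7%. ETS was found in 78.8%, 78.1%, and 77.3%, and E-box 2 in 39.6%, 37.1%, and 42.6%. The median GC content was 45.2%, 43.9%, and 46.6%, and repeats masked in the reference took up a median of 17.1%, 17.7%, and 17.2% of the bases. A match describes the sequence and is not a bound site.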

How the data were processed

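The deposited files were peak lists, 1 for each of 22 samples, with a position and a score for every peak. According to the study's methods the authors aligned reads to mm10 with Bowtie2 at default settings, kept uniquely mapped reads, and called peaks in each sample with MACS without its fragment model. The labels also name a human build, but the positions match mouse chromosomes. The MACS version, its control and its threshold are not given in the sources used here, nor is the CTCF processing. The deposited score column started at 50 in every list. A percentile is the rank of a peak's score within its own list.

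Samples were grouped by mark and time from the labels. The peaks of the 10 H3K27ac lists were merged where they touch, and the length covered by each list's peaks was computed in every region (Python 3.11.15, numpy 2.4.6, pandas 2.3.3). A TSS is that of a GENCODE M21 protein-coding gene. For each gene only the start of its longest transcript among those of the best annotated rank was used, and alternative start sites were not counted. Genome sequence came from RefSeq's GRCm38.p6 (pysam 0.24.0). Covered lengths were tested with limma 3.58.1 in R 4.3.3 on log2(covered bp + 200), with Benjamini-Hochberg adjustment over all regions tested and a threshold of 0.05, after tests on simulated data. Wilson intervals are from scipy 1.17.1 and cover counting over regions only, and figures are from matplotlib 3.10.9.

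The members, the gene lists, the motifs and the tests were chosen with earlier results of these data known. Regions named are the 8 with the highest score percentile and the 6 with the longest coverage at 0 h, up to 4 nearest to genes of each list, the 4 highest in percentile with no peak at 2 h, the 4 highest with a peak in both lists at 2 h and neither at 12 h, up to 6 passing a limma fit, and clusters of at least 3 within 50 kb. Alternatives changed the peaks used, merging, overlap, window, added bp, fit and lists.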

Additional observations from a re-analysis of the deposited data

How the results depend on the processing

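Peak calling set how many regions were lost early. With only the peaks whose score reached the median over all H3K27ac lists (241.89), 119 regions met the rule, 23.9% had an H3K27ac peak at 2 h and 10.5% at 12 h, 58.8% had H3K4me3 at 0 h and 48.3% at 24 h, 32.8% held a TSS, and 74.8% had a GATA match. This setting kept 11 of the 35 named regions. With 17247 top-scoring peaks from every H3K27ac list, which kept 28 of the 35, the share at 12 h was 16.3% and H3K4me3 at 24 h 23.8%. Counting peaks over at least 25% of a region gave 20.3% for H3K4me3 at 24 h and 10.3% and 12.4% for CTCF at 0 h and 24 h, and widening regions by 1 kb gave 23.5% for H3K4me3 at 24 h. GATA matches were found in 60.1% of windows of 500 bases and 96.2% of 2000. In the regions without a TSS and with 0 h peaks under 4 kb, a set chosen after seeing the data, 20.2% had H3K27ac at 12 h, and 14.4% and 10.1% had H3K4me3 at 0 h and 24 h. The 5 limma calls of shorter H3K27ac at 12 h became 0 with 50 bp added and 11 with all 10 lists fitted, and the 4 calls in H3K4me3 at 24 h became 1 among regions with H3K4me3 in at least 5 lists.

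Deviations of same-numbered lists had correlations between -0.13 and 0.05, so no pairing by replicate number was seen in the lengths tested. For H3K27ac this covers the 2 h and 12 h lists only. It cannot show whether same-numbered lists shared a culture. With the replicate number as a block the calls were 0 for H3K27ac at 12 h, 2 for H3K4me3 at 24 h and 0 for H3K4me3 at 6 h. Leaving out 1 list at a time gave 290 to 879 regions, of which 20.2% to 43.5% had an H3K27ac peak at 2 h, 12.3% to 27.1% at 12 h, 16.7% to 28.0% H3K4me3 at 0 h, 13.2% to 23.9% at 24 h, 5.69% to 11.9% a TSS, and 81.5% to 84.0% a GATA match. Apart from the GATA share, the lowest of these shares came without 1 of the 0 h lists, replicate 1 for H3K27ac at 2 h and replicate 2 for H3K27ac at 12 h, H3K4me3 and the TSS share. The limma calls ranged from 4 to 67 for H3K27ac at 12 h, from 1 to 6 for H3K4me3 at 24 h, and from 0 to 3 at 6 h. A fit without 1 of 2 lists assumes that the lone list varies like the others. The regions that passed a limma test were refitted with other added bp, with the block, and without single lists; none changed sign, and 52 of these refits stayed past the threshold while 33 did not. The sign could not change where both lists of a time hold no peak. That was so at 12 h in all H3K27ac calls, at 24 h near *Gng2*, and at 0 h in the *Noct* intron and *Pdzd8*. Depth could not be assessed, as the lists hold no read counts. The cause of these shifts was not tested.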
